A study of Mus musculus with 5 samples.

Results

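The genes described here are the C-type lectin and killer lectin receptor genes of the mouse, taken as the autosomal protein-coding genes of GENCODE M21 (mm10) whose symbol starts with Clec or Klr. They were 56 of 20807 autosomal protein-coding genes. Each was taken with its body and 10000 bp on each side, and the regions of macroH2A1.2-GFP enrichment that overlapped this stretch by at least 1 bp were counted as its own. The family was chosen by name, but with earlier results at Clec5a and on chromosome 6 in view, so what these results already showed is given as a description. 44 of the genes formed a cluster on chromosome 6 from 122270596 to 131247362, Clec5a lay alone on the same chromosome from 40574894 to 40585821, and the other 11 genes lay elsewhere on chromosomes 6, 7, 8, 9, 11, 12 and 16.

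3T3-L1, a mouse fibroblast line that can be turned into adipocytes, carried a lentivirus that stably expressed macroH2A1.2 fused to GFP in every sample, so the occupancy is that of the fusion protein and not of the native histone. Chromatin was digested with micrococcal nuclease, precipitated with an anti-GFP antibody and sequenced from 2 samples of pre-adipocytes and 2 of mature adipocytes, beside 1 control library made without antibody. Differentiation into mature adipocytes had been started with a cocktail of insulin (10 µg/ml), IBMX (500 µM) and dexamethasone (0.25 µM), given for 60 h, after which insulin alone was kept in the medium. The conditions rest on the sample titles, because the description fields of both mature samples name the state before differentiation, and the source field names an adipocyte for all. The methods speak in a single place of adipose tissue of mice as the chromatin source, whereas the labels give the cell line. The methods speak of biological replicates, but nothing says whether the 2 samples of a condition came from separate cultures, so the spread given here may be technical. A difference in occupancy per cell cannot be told apart from a difference in the number of cells that carry it.

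C-type lectins share a fold that in many members binds sugars. Killer lectin receptors are relatives of this fold on natural killer cells and T cells, where many bind MHC class I or related proteins and either restrain or trigger killing. Many Clec receptors sit on macrophages and dendritic cells and sense microbes or dead cells. Expression was not measured in these tables. MacroH2A1.2 is a splice form of a histone H2A variant with a large non-histone domain, which lies in broad stretches of chromatin that are often silent.

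In each sample, enriched regions had been called against the control with an FDR of at most 0.001. Values are given throughout in the order replicate 1 and replicate 2 of pre-adipocytes, then replicate 1 and replicate 2 of mature adipocytes, and the samples held 36468, 38546, 59375 and 61196 regions. Replicate 2 of pre-adipocytes was the least deeply sequenced, with a library 0.549 times as large as the control, against between 1.2 and 1.23 times in the others. Its regions were also the shortest, with a median of 3000 bp against 5800, 3600 and 3400 bp. The lectin genes had 26, 14, 35 and 44 regions.

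At least 1 region reached 35 of the 56 lectin genes in at least 1 sample (62.5%), while the same held for 53.7% of all autosomal protein-coding genes. The genes with a region numbered 16, 8, 23 and 26 in the 4 samples, or 28.6%, 14.3%, 41.1% and 46.4%, against 35.0%, 30.3%, 41.4% and 41.6% of all genes. Thus the share was below that of all genes in both pre-adipocyte samples, and close to or above it in the mature samples. Few genes were reached in both samples of the same condition. Both replicates of pre-adipocytes had a region at 7 lectin genes (12.5%, against 24.2% of all genes), and both replicates of mature adipocytes at 16 (28.6%, against 34.4%). The 5 genes with a region in all 4 samples were Clec5a, Clec2d, Clec2e, Clec9a and Clec10a, and 16 genes had one in a single sample (28.6%, against 11.9% of all genes). Regions in mature adipocytes alone were found at 18 genes (32.1%, against 12.6%) and in pre-adipocytes alone at 2 (3.57%, against 5.07%). A region in both mature samples and in neither pre-adipocyte sample was found at 4 of the 56 genes, against 1012 of all 20807 genes. The share was somewhat larger at the lectin genes, but it rests on 4 genes.

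The covered share, the percentage of the body plus flanks that lay in called regions, averaged 8.70% and 2.59% in the pre-adipocyte samples and 7.43% and 9.47% in the mature samples. The pre-adipocyte mean was 5.65% ± 4.32 and the mature mean 8.45% ± 1.45 (SD, n = 2 each), so they differed by less than the spread between the pre-adipocyte replicates. Over all genes the corresponding means were 5.90% ± 3.17 and 8.02% ± 0.222 (SD, n = 2 each). The covered share was higher in both mature samples than in both pre-adipocyte samples at 9 lectin genes (16.1%), 7 of them in the cluster, a share near the 14.6% of all genes. They were Clec14a, Clec18a, Klrb1b, Klrb1f, Clec2e, Clec2g, Clec2i, Klra1 and Klra17. Some entered on small margins. The lower mature value was 0.17% at Klra1 and 1.02% at Klrb1b, against 0% in pre-adipocytes. At Clec2g it was 5.56%, against 4.27% in replicate 2 of pre-adipocytes. The covered share was higher in both pre-adipocyte samples at 0 lectin genes, against 3.51% of all genes. This split changed when the shallow sample was left out. Without replicate 2 of pre-adipocytes, 9 lectin genes were higher in mature adipocytes and 9 were higher in pre-adipocytes (16.1% each, against 16.2% and 18.1% of all genes). The genes higher in mature adipocytes numbered 14 without replicate 1 of pre-adipocytes (25.0%, against 28.0% of all genes), 18 without replicate 1 of mature adipocytes (32.1%, against 22.7%) and 17 without replicate 2 (30.4%, against 23.4%).

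**Figure D1:**
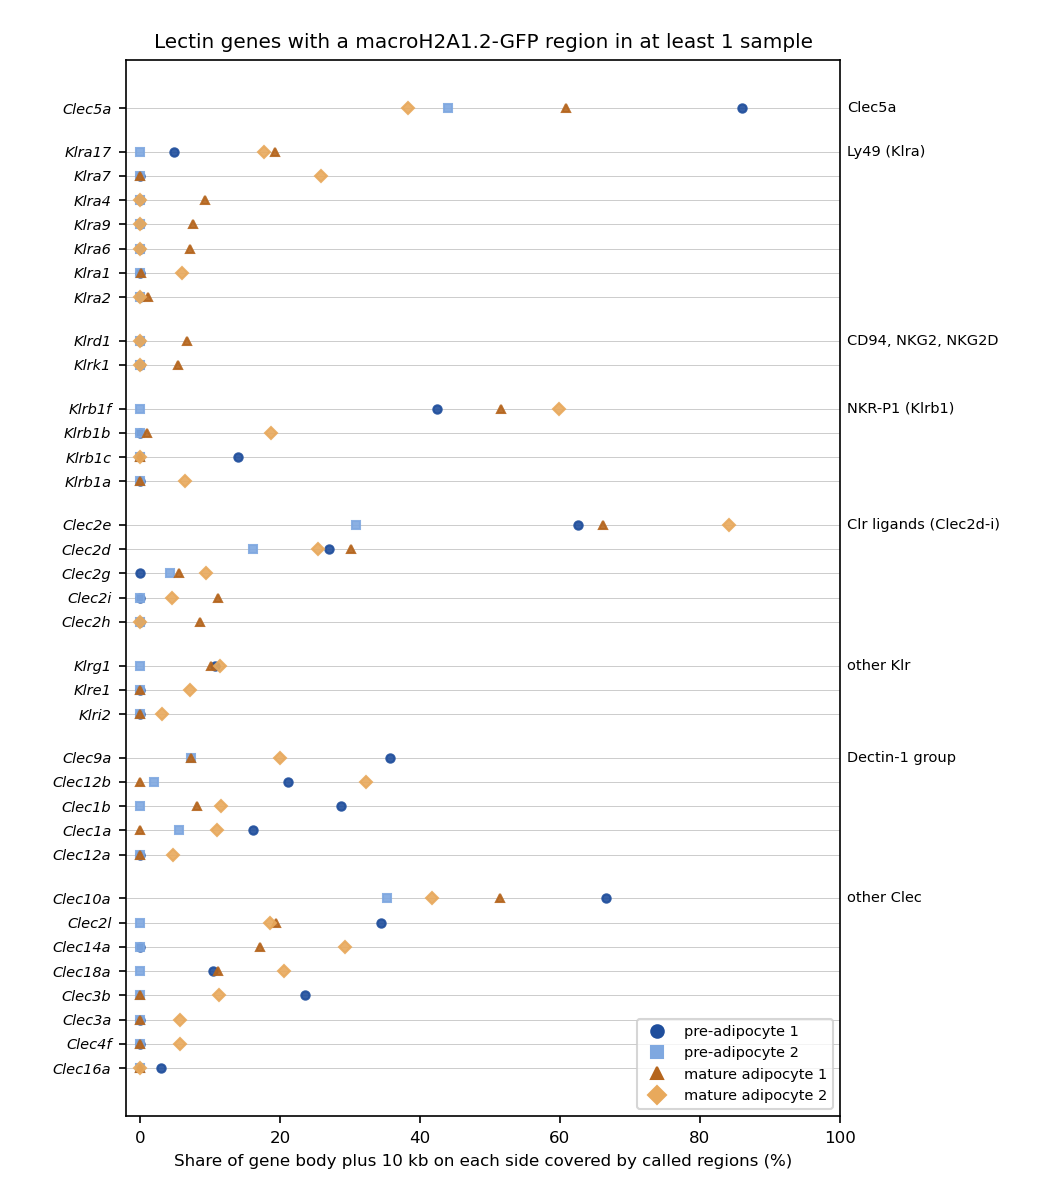
Covered share (%) of the body plus 10000 bp on each side for the 35 lectin genes with a region in at least 1 sample, grouped by receptor family, with 1 point per sample. Clec2e, Clec5a and Clec10a are the genes with high values in all 4 samples, and many points at 0 in pre-adipocytes belong to Klra and Klrb1 genes.

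Clec5a encodes a myeloid receptor that signals through the adaptor DAP12. The gene (ENSMUSG00000029915.14) lies on the minus strand of chromosome 6, next to the olfactory receptor gene Olfr460. Clec5a was among the most covered genes of the family, with 86.1% and 44.0% in pre-adipocytes and 60.8% and 38.2% in mature adipocytes. The samples of the 2 conditions overlapped, with the lowest value in a mature sample and the next lowest in a pre-adipocyte sample. Clec2e, with a mean of 60.9% over the 4 samples, and Clec10a, with 48.7%, stood beside Clec5a, whose mean was 57.3%. Their values overlapped those of Clec5a, so the order of these 3 genes is not larger than the spread between samples.

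Reads at Clec5a differed in density more clearly than in extent. Its regions held 1084, 319, 598 and 456 ChIP reads and 483, 245, 335 and 253 control reads. The pooled fold enrichment, which is ChIP over control reads after scaling by library size, was 1.87 and 2.37 in pre-adipocytes and 1.45 and 1.49 in mature adipocytes. Over all regions of the same samples it was 1.58, 1.92, 1.73 and 1.75. Clec5a thus stood above the value of all regions in both pre-adipocyte samples and below it in both mature samples. These values come from the same reads as the difference that had singled out Clec5a. They describe that difference and add no support to it. The control had 17.3, 18.0, 17.8 and 18.9 reads per kb in these regions, a narrow range.

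The merged region over Clec5a, from 40570601 to 40592000 on chromosome 6, was called in every sample. It contained the whole gene and its start. ChIP reads per kb of called sequence, divided by the relative library size, were 33.0 and 42.7 in pre-adipocytes and 25.9 and 28.2 in mature adipocytes, with no overlap between conditions. Pre-adipocytes averaged 37.9 ± 6.86 and mature adipocytes 27.1 ± 1.64 (SD, n = 2 each). The log2 fold change of mature against pre-adipocytes was -0.46 with a standard error of 0.09 in edgeR's quasi-likelihood fit over the 12857 merged regions that had been called in all 4 samples. This value was part of what singled out Clec5a, so no test is given for it, and its standard error is not to be read as one. The reads per kb above and every alternative fit rest on the same counts, so they add no support to this value. The fold change was negative in each alternative fit, between -1.14 and -0.398. The standard error differed between these fits, at 0.139 in DESeq2, 0.187 with library sizes relative to the control and 0.329 without the length offset.

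The start site of Clec5a, at position 40585821, was inside a region in both mature samples and outside in both pre-adipocyte samples. In replicate 1 of pre-adipocytes it fell in a gap of 800 bp between regions on either side, and in replicate 2 in a gap of 5000 bp. In mature adipocytes the start lay well inside a single region, from 40578201 to 40591800 in replicate 1 and from 40581001 to 40590600 in replicate 2. These regions had fold enrichments of 1.39 and 1.43. The regions that flanked the gap in pre-adipocytes had higher values, 1.86 and 1.98 in replicate 1 and 2.025 and 2.473 in replicate 2. The start site was covered in the samples in which the enrichment over the locus was lower. A start site inside a region in both mature and no pre-adipocyte sample was found for 2 lectin genes, Clec5a and Klra17 (3.57%, against 0.961% of all genes).

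**Figure D2:**
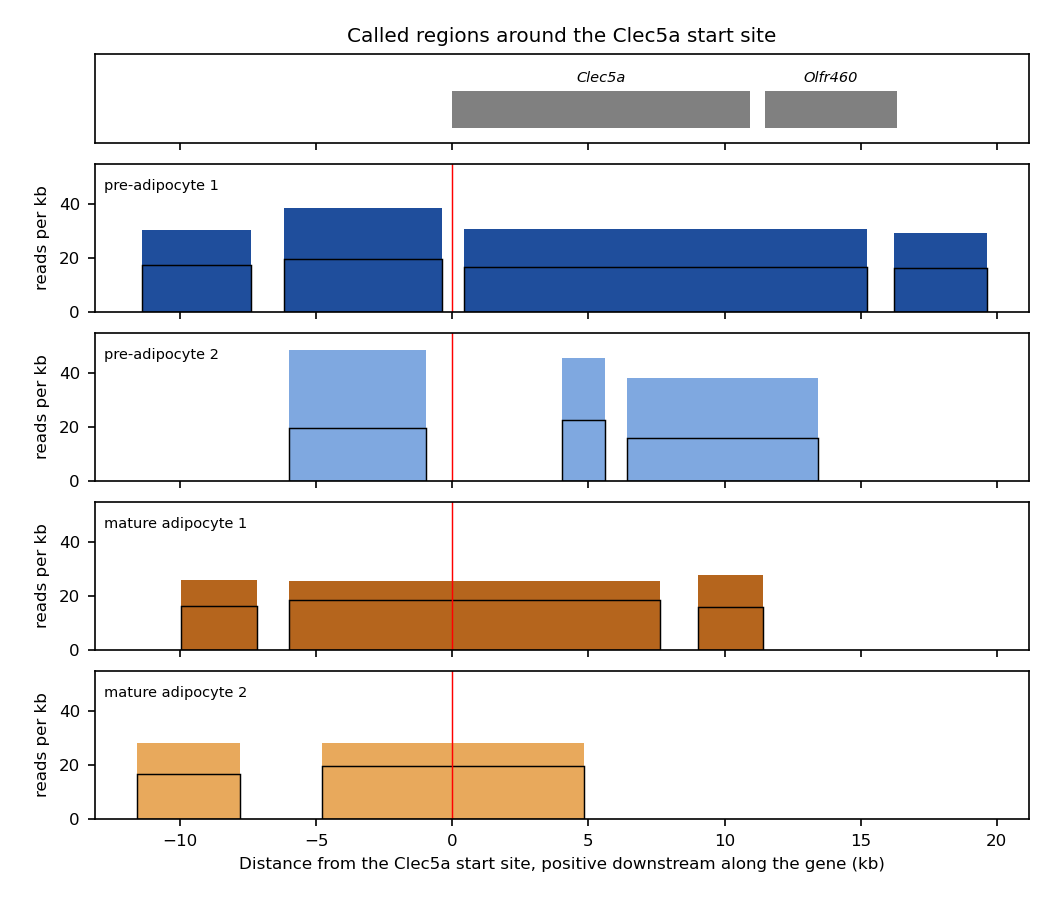
Called regions around the start site of Clec5a in the 4 samples, as distance from the start in kb (positive along the gene) against reads per kb. Filled bars are ChIP reads per kb divided by the relative library size, outlined bars are control reads per kb, the vertical line is the start site, and it falls between regions in pre-adipocytes and inside a region in mature adipocytes.

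Of the other 5 merged regions at lectin genes that could be tested, none passed an adjusted p of 0.05 (edgeR's quasi-likelihood test, Benjamini-Hochberg over 12857 regions, 0 of the 5 also under an unadjusted p of 0.05, and 0 in DESeq2 after adjustment). Over all tested regions, 0.0856% passed. At Clec2e the scaled reads per kb were 28.3, 38.8, 37.9 and 34.3, with a log2 fold change of 0.16 (SE 0.08, adjusted p = 0.564). The values of both conditions overlapped. At Clec2d they were 33.2, 36.9, 33.0 and 37.8, nearly level, with an adjusted p of 0.998 in the edgeR fit. At Klrb1f they were 25.4, 30.4, 29.5 and 30.7 with a log2 fold change of 0.12 (SE 0.13, adjusted p = 0.828). There the called length, rather than the density, set the conditions apart, since it was 5400 and 3000 bp in pre-adipocytes and 15400 and 16000 bp in mature adipocytes. The called parts of the 2 pre-adipocyte samples did not overlap, so their densities come from different sequence. In replicate 1 the part ran from 129038801 to 129044200, and in the shallow replicate 2 it lay 15301 bp from the gene body. Another merged region at Klrb1f, from 129050001 to 129059600, was not called in the shallow replicate and so was not tested. Its called length was 8000 bp in replicate 1 of pre-adipocytes, close to the 8200 and 9600 bp in mature adipocytes. The regions before and after Clec10a had log2 fold changes of -0.10 (SE 0.09) and 0.17 (SE 0.17), with adjusted p of 0.799 and 0.814 from edgeR. Over the 6 regions 3 values were above 0 and 3 below, and their median was 0.06, against -0.00066 over all tested regions.

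**Figure D3:**
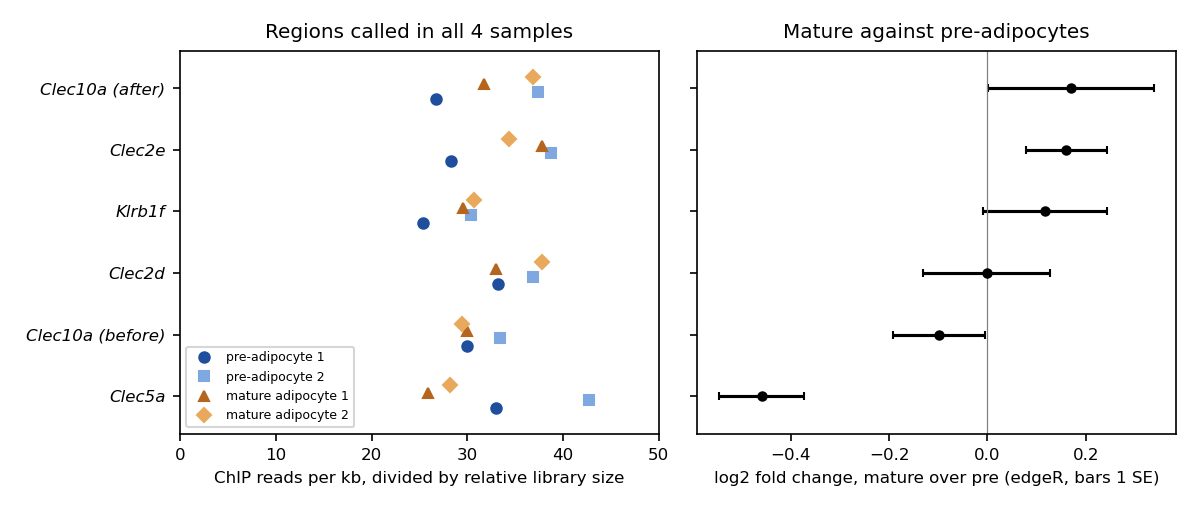
The 6 merged regions at lectin genes called in all 4 samples. The left panel gives ChIP reads per kb of called sequence divided by relative library size, with 1 point per sample, and the right panel gives the log2 fold change of mature over pre-adipocytes with bars of 1 standard error, of which the Clec5a value at -0.46 is the lowest.

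The chromosome 6 cluster was taken as the largest chain of lectin genes there whose neighbours lay within 10 Mb. It holds receptors of natural killer cells and lectins of myeloid cells over 8.977 Mb, with no lectin gene of the set between 123289870 and 128609227. Of the 44 cluster genes, 10, 6, 18 and 18 had a region in the 4 samples. These are 22.7%, 13.6%, 40.9% and 40.9%, against 35.0%, 30.3%, 41.4% and 41.6% of all genes. At 26 cluster genes at least 1 sample had a region (59.1%, against 53.7% of all genes), and 18 had none. The mean covered share in the cluster was 5.99% and 1.5% in pre-adipocytes and 5.82% and 8.17% in mature adipocytes. The other 11 genes had 12.5%, 3.20%, 9.01% and 12.1%, and the cluster minus the other genes was on average -3.84 ± 2.03 percentage points (SD, n = 4 samples). This difference depended on whether Clec10a, the most covered of the other genes, was counted. Without Clec10a, the other 10 genes had 7.14%, 0%, 4.77% and 9.12%, above the cluster in 2 samples and below it in 2. The average difference was then 0.112 percentage points. The cluster kept its own most covered gene, Clec2e, so this removal from 1 side lowers the other genes alone. Counting each base once over the union of the genes, the cluster was covered to 4.87%, 1.29%, 5.55% and 7.56% and the other genes, Clec10a included, to 10.0%, 2.24%, 6.48% and 8.44%. The pooled fold enrichment of cluster regions was 1.44, 1.98, 1.62 and 1.56, against 1.63, 1.87, 1.66 and 1.74 at the other genes. The control held 19.1, 18.6, 20.3 and 20.2 reads per kb over the cluster regions, against 18.5, 19.4, 18.5 and 18.6 over all regions. Merging overlapping regions of the 4 samples gave 36 regions at cluster genes, of which 3 were called in all samples (8.33%, against 20.6% of all autosomal merged regions). Of these 36, 23 were called in mature adipocytes alone (63.9%, against 42.2%). Only 4 were called in both mature samples and in neither pre-adipocyte sample (11.1%, against 12.9%). A single sample held 21 of the 36 (58.3%, against 40.9%).

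**Figure D4:**
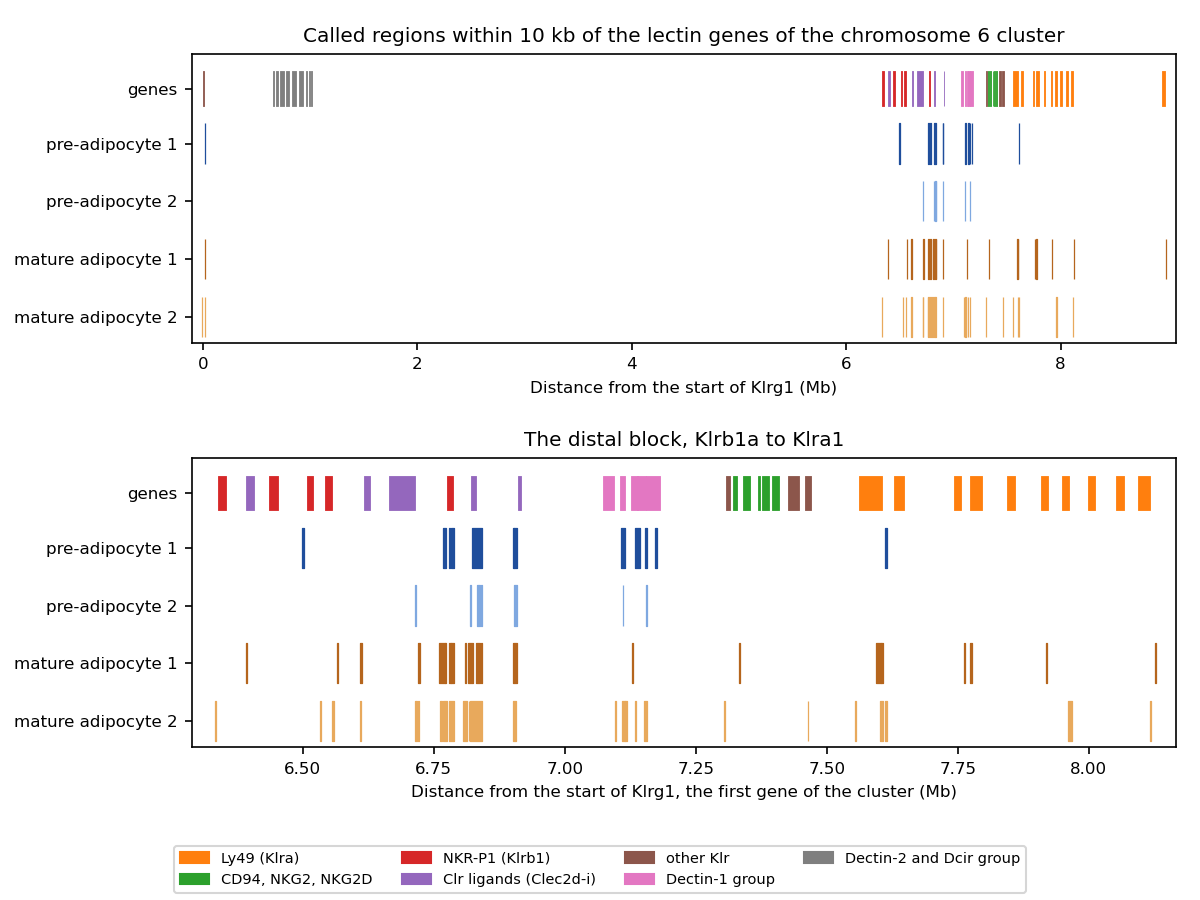
Map of the chromosome 6 cluster, with genes coloured by family in the top row and called regions of each sample within 10000 bp of a lectin gene below, as distance from the start of Klrg1 in Mb. The Dectin-2 and Dcir genes have no region in any sample, and the distal block shows regions at Klrb1f, Clec2e and Clec2d in the mature samples and, except for Klrb1f, in both pre-adipocyte samples.

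The cluster fell into 2 blocks. In the proximal block of 10 genes, from Klrg1 to Clec4e over 1.019 Mb, the only gene with a region was Klrg1. The other 9 genes are the Dectin-2 and Dcir group, which includes Clec4e (Mincle, a sensor of mycobacterial glycolipids), Clec4d, Clec4n (Dectin-2, a sensor of fungal mannans) and the inhibitory receptor gene Clec4a2. All 9 lay in a stretch without any region in any sample, from 122865001 to 124244200 on chromosome 6. It measured 1379 kb and was the 206th longest of 61923 stretches between regions, whose median was 4000 bp. Its 19 protein-coding genes were Necap1, the 9 lectin genes and Vmn2r19 to Vmn2r27, a run of vomeronasal receptor genes. Whether reads map uniquely there was not tested, and only uniquely mapping reads had been kept.

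The distal block of 34 genes, from Klrb1a to Klra2 over 2.638 Mb, held the remaining regions of the cluster. There the genes of NKR-P1 receptors and of their Clr ligands are interleaved. Between 129027601 and 129178600, a stretch from Klrb1f to Clec2d that was picked after its values were seen, regions covered 41.5% and 25.2% of the sequence in pre-adipocytes and 61.7% and 61.6% in mature adipocytes. The fold enrichment there was 1.47, 1.77, 1.71 and 1.65, with the highest value in the sample with the fewest bases covered.

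All 5 Clr ligand genes had a region in at least 1 sample (against 53.7% of all genes), with 2, 3, 5 and 4 of them in the 4 samples. These are 40.0%, 60.0%, 100.0% and 80.0%, against 35.0%, 30.3%, 41.4% and 41.6% of all genes. Clec2e, which encodes Clr-a, was covered to 62.6% and 30.8% in pre-adipocytes and 66.1% and 84.1% in mature adipocytes. Clec2d, which encodes Clr-b, the ligand through which healthy cells hold back natural killer cells, was covered to 27.0%, 16.2%, 30.1% and 25.5%, and its conditions overlapped. Both genes had regions in every sample. Clec2d regions lay upstream of the gene, the nearest 2015 bp from its body. Clec2g and Clec2i were also higher in both mature samples than in both pre-adipocyte samples, with 5.56% and 9.39% against 0% and 4.27% at Clec2g and 11.1% and 4.58% against 0% in both at Clec2i.

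NKR-P1 receptors bind these ligands. Klrb1f, an NKR-P1 receptor gene, was covered to 42.5% and 0% in pre-adipocytes and 51.6% and 59.9% in mature adipocytes. The difference of means, 34.5 percentage points, was the largest among the 9 genes whose conditions did not overlap. The value of 0% belongs to the shallow replicate, whose only part of the tested region lay beyond the 10000 bp limit. Klrb1b, the inhibitory receptor for Clr-b, had no region in pre-adipocytes and was covered to 1.02% and 18.7% in mature adipocytes. Klrb1c, the gene of the NK1.1 antigen, was covered to 14.0% in replicate 1 of pre-adipocytes alone, and Klrb1a to 6.41% in replicate 2 of mature adipocytes alone.

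The Ly49 receptors, encoded by Klra genes, recognise MHC class I on mouse cells. Of these 11 genes, 1 and 0 had a region in pre-adipocytes and 6 and 3 in mature adipocytes, but 5 of the 7 genes with a region had it in a single sample. The shares were 9.09%, 0%, 54.5% and 27.3%, against 35.0%, 30.3%, 41.4% and 41.6% of all genes. At least 1 sample had a region at 63.6% of the Ly49 genes, against 53.7% of all genes. Klra17, which encodes Ly49Q, an inhibitory receptor of plasmacytoid dendritic cells, was covered to 4.88% and 0% in pre-adipocytes and 19.2% and 17.7% in mature adipocytes. The conditions did not overlap. The regions over its start site had low fold enrichments of 1.30 and 1.27 in the mature samples, with 37.2 and 34.0 control reads per kb, against a median of 17.1 and 17.2 over all regions of these samples. Klra7, the inhibitory Ly49G, was covered to 25.9% in replicate 2 of mature adipocytes alone, with a fold enrichment of 1.28. Klra4, Klra6 and Klra9 were covered in replicate 1 of mature adipocytes alone, with 9.35%, 7.08% and 7.55%. Klra1 was covered to 0.17% and 6.05% in the mature samples, and Klra2 to 1.17% in replicate 1. Ly49 genes are near copies of each other, so reads that match more than 1 of them had been dropped, and the values of single Klra genes are uncertain.

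CD94 and the NKG2 receptors bind nonclassical MHC class I and stress ligands. Of these 5 genes, Klrd1 (CD94) and Klrk1 (NKG2D) were reached by a region, in replicate 1 of mature adipocytes alone, and it was the same region of 1800 bp with 71 ChIP and 31 control reads. It covered 6.67% and 5.37% of their stretches. Klrc1, Klrc2 and Klrc3 had none, so 40.0% of this family had a region in at least 1 sample, against 53.7% of all genes. Among the other killer lectin genes, Klrg1, an inhibitory receptor of T cells and natural killer cells that binds cadherins, was covered to 10.8%, 0%, 10.2% and 11.4%. Klre1 and Klri2 were covered in replicate 2 of mature adipocytes alone, with 7.16% and 3.18%.

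The Dectin-1 group varied within both conditions. It held Clec1a, Clec1b, Clec9a, Clec12a and Clec12b, while Clec7a, the gene of Dectin-1 itself, was not among the 56 genes. Of the 5 genes of the group, 4, 3, 2 and 5 had a region in the 4 samples. These are 80.0%, 60.0%, 40.0% and 100.0%, against 35.0%, 30.3%, 41.4% and 41.6% of all genes. The mean covered share was 20.3% and 2.95% in pre-adipocytes and 3.07% and 15.9% in mature adipocytes. Clec9a, a dendritic cell receptor for dead cells, was covered to 35.7%, 7.24%, 7.24% and 20.1%. Clec12b, an inhibitory receptor, was covered to 21.1%, 1.98%, 0% and 32.3%. The Clec12b region in replicate 2 of pre-adipocytes was 600 bp long with 25 ChIP and 6 control reads, which gave a fold enrichment of 7.59, the highest at any lectin gene, on few reads. Clec1b, the platelet receptor for podoplanin, was covered to 28.7%, 0%, 8.12% and 11.6%, and Clec1a to 16.1%, 5.51%, 0% and 11.0%. Neighbouring genes of this group share regions, so they do not count as separate observations.

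**Figure D5:**
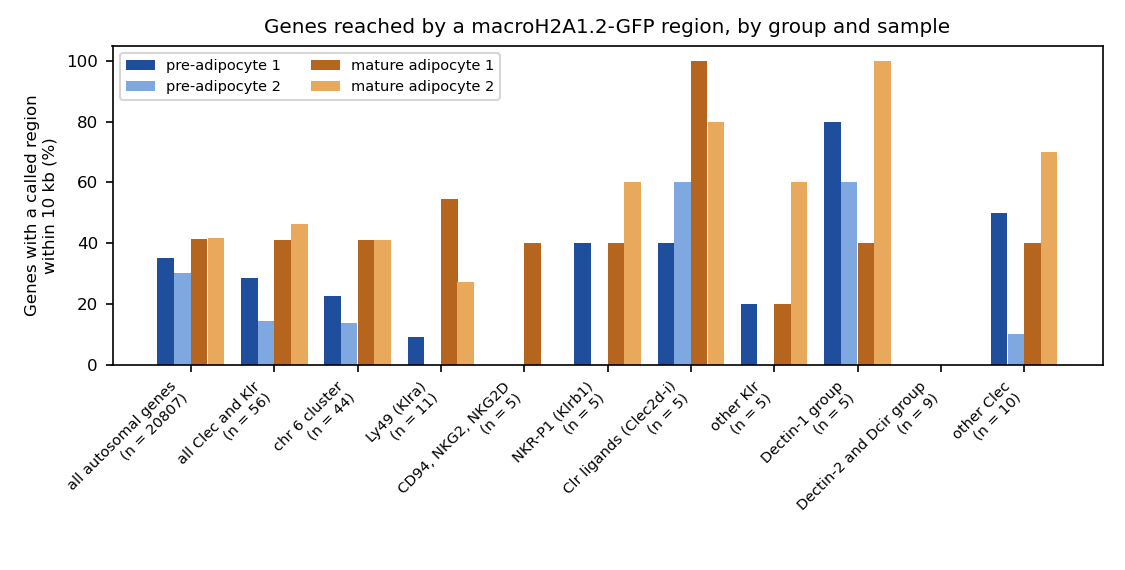
Percentage of genes with a called region within 10000 bp in each of the 4 samples, for all 20807 autosomal protein-coding genes, the 56 lectin genes, the 44 cluster genes and each family. Bars for the Dectin-2 and Dcir group are at 0 in all samples, and the Ly49 bars reach 54.5% and 27.3% in mature adipocytes against 9.09% and 0% in pre-adipocytes.

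Outside the cluster and Clec5a, 8 of the 11 genes had a region in at least 1 sample (72.7%, against 53.7% of all genes). Clec10a, a galactose-binding lectin of macrophages on chromosome 11, was covered to 66.5% and 35.2% in pre-adipocytes and 51.4% and 41.7% in mature adipocytes, with 4 regions in each sample. It was the only gene of these 11 with a region in all 4 samples. Clec14a, an endothelial lectin gene on chromosome 12, had no region in pre-adipocytes and was covered to 17.1% and 29.3% in mature adipocytes, with fold enrichments of 1.63 and 1.57. Clec18a, on chromosome 8, was covered to 10.5%, 0%, 11.2% and 20.6%. Clec2l, a lectin gene known from brain, was covered to 34.4%, 0%, 19.4% and 18.5%, and its values overlapped between conditions. Clec3b, which encodes the secreted plasminogen-binding protein tetranectin, was covered to 23.5% and 11.3% in replicate 1 of pre-adipocytes and replicate 2 of mature adipocytes and to 0% in the others. Clec4f, a Kupffer cell lectin, and Clec3a were covered in replicate 2 of mature adipocytes alone, with 5.69% and 5.76%. Clec16a, an autophagy gene that carries the lectin name, had 3.04% of its stretch covered in replicate 1 of pre-adipocytes alone, by a region of 18200 bp beyond its end that a region of replicate 2 overlapped beyond the 10000 bp limit. Klrg2, Clec11a and Clec4g had no region.

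In all, 21 lectin genes had no region in any sample, namely the 9 Dectin-2 and Dcir genes Clec4a1, Clec4a2, Clec4a3, Clec4a4, Clec4b1, Clec4b2, Clec4d, Clec4e and Clec4n, the killer lectin genes Klrb1, Klrc1, Klrc2, Klrc3, Klri1, Klra3, Klra5, Klra8 and Klra10, and Klrg2, Clec11a and Clec4g. Regions reached the gene body of 21 genes and the flank alone of 14. The nearest to the 10000 bp limit were Klra2, with a region 9439 bp from its body, and Clec3a, at 8155 bp, on the inside, and Klrg2, at 12359 bp, and Clec11a, at 12687 bp, on the outside. The start site lay in a region in at least 1 sample at 11 genes (19.6%, against 11.7% of all genes), which were Clec2l, Clec5a, Clec2h, Klrb1b, Klrb1f, Clec2e, Clec12b, Clec9a, Klra17, Klra7 and Klra1.

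Promoter sequences of RefSeq (GRCm38.p6, 250 bp before to 50 bp after the start) were matched by symbol for 47 of the 56 genes, in 54 windows of 300 bp. They were searched on both strands for GAGGAA, the core bound by the myeloid factor PU.1 (TTCCTC on the other strand), and for TGTGGT, the core bound by RUNX factors (ACCACA on the other strand). Neither set of letters contains the other. The first was present in 57.4% of the windows, against 28.3% of all 32851 RefSeq windows, and at least 2 copies in 24.1% against 4.82%. The second was present in 29.6% against 16.8%. The windows were poor in GC, with a median of 40.8% against 52.7%, and held a median of 3 CpG against 7. These matches are descriptions of letters and not binding sites. The windows are not independent, because those of the near-copy Klra genes and overlapping windows of the same gene, as at Klra8, were each counted. The 250 bp before the start are shown for 4 genes that mark the range of occupancy, with both forms of the first motif in capitals. Clec5a (chr6:40585806-40586055, minus strand) and Klra17 (chr6:129876673-129876922, minus strand) had the window in a region in both mature samples and in neither pre-adipocyte sample. Clec2e (chr6:129100904-129101153, minus strand) had it in a region in replicate 1 of pre-adipocytes and replicate 2 of mature adipocytes, and Clec4d (chr6:123261857-123262106, plus strand) lies in the stretch without regions.
Clec5a: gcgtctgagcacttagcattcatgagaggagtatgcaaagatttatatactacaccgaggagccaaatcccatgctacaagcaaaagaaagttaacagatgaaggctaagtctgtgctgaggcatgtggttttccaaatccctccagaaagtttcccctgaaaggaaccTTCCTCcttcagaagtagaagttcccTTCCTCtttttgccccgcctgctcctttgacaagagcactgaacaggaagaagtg
Klra17: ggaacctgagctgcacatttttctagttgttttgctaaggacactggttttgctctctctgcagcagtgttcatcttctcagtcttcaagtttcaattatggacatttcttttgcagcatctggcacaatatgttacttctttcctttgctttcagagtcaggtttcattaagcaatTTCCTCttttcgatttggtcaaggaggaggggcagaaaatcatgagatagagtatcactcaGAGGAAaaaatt
Clec2e: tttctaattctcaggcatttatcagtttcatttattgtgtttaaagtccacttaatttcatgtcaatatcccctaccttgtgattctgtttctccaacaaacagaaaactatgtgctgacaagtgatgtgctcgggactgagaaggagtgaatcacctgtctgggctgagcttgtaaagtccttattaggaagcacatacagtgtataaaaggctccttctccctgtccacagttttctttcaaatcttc
Clec4d: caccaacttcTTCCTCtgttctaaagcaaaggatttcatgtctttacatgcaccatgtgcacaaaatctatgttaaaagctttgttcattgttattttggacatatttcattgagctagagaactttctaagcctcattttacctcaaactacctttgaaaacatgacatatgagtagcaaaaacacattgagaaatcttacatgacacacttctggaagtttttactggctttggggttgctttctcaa

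The Clec5a and Klra17 stretches each held 2 copies, Clec4d 1 copy and Clec2e 0 copies. In the whole window of 300 bp, Clec2e had no copy and Clec4d had 3. Over the 54 windows, 31 held the motif, of which 7 lay in a region in at least 1 sample, and 5 of those without it did.

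Genes that signal downstream of these receptors were described in the same way, from a list of 15 adaptors and signalling genes. A region was present at 8, 6, 7 and 9 of them in the 4 samples and at 10 in at least 1 sample (66.7%, against 53.7% of all genes). Syk, the kinase that many of the activating receptors use, was covered to 42.5%, 14.5%, 33.2% and 39.0%, and Plcg2, a phospholipase that acts after it, to 55.2%, 23.3%, 54.4% and 58.3%. Both had their lowest value in the shallow sample. The adaptor genes Tyrobp (DAP12, the partner of Clec5a) and Fcer1g had no region, nor had Card9, Bcl10 and Ptpn6. Of 26 further genes with a C-type lectin domain, 18 had a region in at least 1 sample (69.2%). Cd93, covered to 96.3%, 34.8%, 79.9% and 83.7%, and Colec10, to 84.6%, 59.5%, 88.1% and 81.7%, had the highest means, and Cd209a to Cd209e had none. The covered share was higher in both mature samples than in both pre-adipocyte samples at 6 of the 26 and at 1 of the 15, against 14.6% of all genes. The opposite order was found at 1 of the 15, against 3.51% of all genes.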

How the data were processed

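Chromatin of macroH2A1.2-GFP 3T3-L1 cells was sequenced by the authors from 2 pre-adipocyte and 2 mature adipocyte samples, with 1 control library without antibody. Per the submitters' processing notes, bcl2fastq 2.16, Bowtie 1.1.2, Picard, SICER 1.1, bedtools and mm10 were used. The authors kept uniquely mapping reads, removed duplicates and called regions in each sample separately. The deposited columns hold raw ChIP and control read counts. The deposited p-value and FDR are those of SICER, and the deposited fold is the ratio of ChIP to control reads scaled by library size. The control has no table of its own here, and total depth is not given, so each library's size relative to the control was solved from counts and fold.

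Regions move in steps of 200 bp and are given 1-based. Regions of the 4 samples were merged where they overlapped. ChIP counts at 12857 merged regions, those found in every sample, were tested in edgeR 4.0.16 with TMM, called length as offset and Benjamini-Hochberg adjustment, tested on simulated data first. DESeq2 1.42.0 was an alternative, and R 4.3.3, limma 3.58.1, Python 3.11.15, numpy 2.4.6, pandas 2.3.3 and matplotlib 3.10.9 were used. Exact permutation tests of 2 against 2 samples cannot go below 0.333 and were not used. The genes, families and lists were chosen with earlier results of these data known. Genes are named by a rule: Clec5a, the 2 most covered genes of each family, the 5 largest differences without overlap between conditions, tested regions that passed, and genes without a region. Others were named after their values were seen, and signalling and further lectin genes come from fixed lists.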

Additional observations from a re-analysis of the deposited data

How the results depend on the processing

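With n = 2 per condition and 1 shallow pre-adipocyte sample, values at single genes rest on few calls, and regions not called in every sample were outside the edgeR test. Over the genome, 11 regions passed in edgeR, 12 with RLE factors, 3 without the length offset, 2 in DESeq2, 0 with library sizes relative to the control (68 at an unadjusted p under 0.05, against 1176 in edgeR with TMM), 27 with at least 50 ChIP reads in every sample, and 1 to 224 on leaving out 1 sample (112 and 224 without replicate 1 and 2 of pre-adipocytes, 5 and 1 without replicate 1 and 2 of mature adipocytes). Of the regions higher in pre-adipocytes, 1 passed in edgeR, 0 in DESeq2, 6 with at least 50 reads, 7 with the replicate block and 0 to 126 on leaving out 1 sample. At lectin genes the count was 1, the Clec5a region whose value had singled it out, so this is no test of it, and it was 0 with library sizes relative to the control, without the offset and in DESeq2 and 0 to 1 on leaving out samples. The Clec5a log2 fold change of -0.46 was -0.47 with library sizes relative to the control, -1.14 without the offset, -0.458 in DESeq2 and -0.507 to -0.398 on leaving out 1 sample. Replicate numbers did not pair the samples (correlation of deviations 0.00775), and with the replicate block 27 regions passed and the Clec5a value was -0.464.

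The number of lectin genes with a region in both pre-adipocyte samples, 7, was 0 with a fold enrichment of at least 2, 4 for the gene body alone and 11 with 20 kb on each side (0%, 7.14% and 19.6%, against 6.68%, 11.8% and 32.7% of all genes). In mature adipocytes it was 16, and 10 at an FDR of 1e-05, 2 with a fold of at least 2, 8 for the body alone and 10 with 5 kb on each side (17.9%, 3.57%, 14.3% and 17.9%, against 29.5%, 14.4%, 17.8% and 26.8% of all genes). The count of genes higher in both mature samples, 9, was 9 to 18 on leaving out 1 sample, while the share of all genes rose from 14.6% to between 16.2% and 28.0%. The cluster minus the other genes turned from -3.84 to 0.112 percentage points without Clec10a, the most covered of the other genes. Both alternatives were added after seeing the data. With a fold of at least 2, the cluster's mean covered share changed its direction, to -0.237 percentage points for mature minus pre-adipocytes. The difference over all lectin genes, 2.80 percentage points, became -0.251 without replicate 2 of pre-adipocytes and at most 5.86 without another sample. The cause of these changes was not tested.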
